A study of Mus musculus with 12 samples.

Results

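The late change of the co-culture response in 3T3-L1 pre-adipocytes is described here, that is, the difference between the co-culture ratio at 48 h and the ratio at 24 h. Of the 12 dual-colour arrays of the study, the 8 arrays of 24 h and 48 h were compared, 4 at each time, matched by treatment, and every gene measured on them was included. 3T3-L1 cells are mouse embryo fibroblasts with the capacity to become fat cells, and RAW264.7 is a mouse macrophage line. Both are established lines. Pre-adipocytes in the lower well, from which RNA was taken, were grown either alone or beneath a porous insert holding the macrophages, so that the cell types shared medium but were kept apart. In both settings there were 4 treatments: none (NT), serotonin at 100 µM (S), cortisol at 100 µM (C), and the combination, with each hormone at 100 µM (CS). On every array the Cy5 dye marked co-cultured cells and the Cy3 dye marked the matching cells grown alone, so that a positive log2 ratio means a higher level in co-culture. There was 1 array per treatment and time and no dye swap. Because nothing replicated a condition, the 4 treatments of a time stood in for replicates in a fit with additive treatment terms. The p-values therefore cover just the remaining scatter among arrays, which may be technical.

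Macrophages release cytokines, chemokines and lipid mediators, and pre-adipocytes carry receptors for many of them. Early signals reach the nucleus through factors such as AP-1, NF-kB and interferon-regulated factors, whose first target genes can be switched on and off within hours. Slower programmes, among them those of the BMP and TGF-beta pathways, lipid handling and the clock, follow through newly made regulators. The comparison of 48 h with 24 h asks which parts of the response to macrophages were still building, which had passed, and which had turned round.

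The number of probes well above background was 21318 to 22824 (Cy5) and 18443 to 20704 (Cy3) on the 24 h arrays, and 19949 to 20642 and 19830 to 20462 on those of 48 h. A total of 13373 named genes were tested. The log2 ratios were centred near 0 at both times but were spread wider at 48 h, where their SD across genes was 0.906 to 0.966 per array against 0.529 to 0.624 at 24 h. Each time had a slide and a scan of its own, and the medium with its hormone was renewed after 24 h, so that time, slide and renewal cannot be told apart. The factor by which the scanner software scaled Cy5 was 1.18 to 1.28 on the 48 h arrays and 0.355 to 0.820 on the 24 h arrays, and its part in the results was not tested.

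A pair of 24 h arrays went against their hormone labels in the channel of cells grown alone. Zbtb16, a gene induced by glucocorticoids, stood at log2 levels of 7.98 (NT), 10.02 (S), 10.82 (C) and 8.36 (CS) in cells alone at 24 h, but at 7.40, 7.66, 10.71 and 10.71 in the same order at 48 h. In co-cultured cells at 24 h it followed the labels, with 7.51, 8.16, 10.04 and 10.15. The alone channel of the array labelled S was thus high and that of the array labelled CS was low, where the labels put the cortisol the other way round. Results for the co-culture ratio were therefore computed with and without these 2 arrays. Fits of the separate channels were not repeated without the pair.

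The co-culture response was broader at 48 h than at 24 h, and 4066 genes (30.4% of those tested) changed between the times. A gene was called when its limma adjusted p was under 0.05 and it changed at least 1.5-fold. At 24 h the ratio was called higher than 0 for 1315 genes and lower for 690 (9.83% and 5.16%), and at 48 h for 3000 and 2884 (22.4% and 21.6%). The ratio rose from 24 h to 48 h for 1850 genes (13.8%) and fell for 2216 (16.6%). For 2802 genes (21.0%) all 4 arrays of 48 h lay above all 4 of 24 h, and for 3112 (23.3%) all lay below. Without the arrays labelled S and CS of 24 h, 1767 genes rose and 2021 fell. Of the 1850 and 2216 genes, 1554 and 1831 were called the same way there. When the log ratios were scaled to one spread on all arrays, 756 rose and 1218 fell, with 633 and 902 of the original calls kept.

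**Figure D1:**
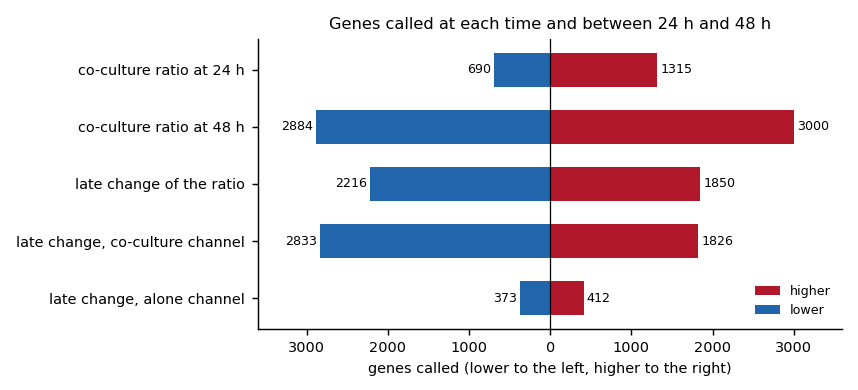
Bars give the number of genes called lower (left) and higher (right) in each comparison, for the ratio of co-culture to alone at 24 h and at 48 h against 0, the change of the ratio from 24 h to 48 h, and the same change in each channel. The alone channel had 412 genes called higher and 373 lower, against 1826 and 2833 in the co-culture channel.

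The 11368 genes not called at 24 h, most of those tested, changed late about as often as all genes, with 13.2% that rose and 16.3% that fell. Of the 1315 already higher at 24 h, 21.7% rose and 13.2% fell. Of the 690 already lower, 8.41% rose and 27.0% fell. Of the 1850 genes that rose, 1261 were not called at 24 h and were called higher at 48 h, 286 were already higher at 24 h, and 58 had been lower. Of the 2216 that fell, 1581 were not called at 24 h and were called lower at 48 h, 186 were already lower, and 173 had been higher. Among those 173, 131 were no longer called at 48 h, 17 were still higher and 25 lay on the other side of 0. The 24 h arrays enter both the level at 24 h and the late change, so these counts describe the genes and are no separate evidence.

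More late changes were called in the channel of co-cultured cells than in that of cells alone. After normalization between arrays, the Cy5 channel of co-cultured cells had 1826 genes higher and 2833 lower at 48 h than at 24 h (13.7% and 21.2%), whereas the Cy3 channel of cells alone had 412 and 373 (3.08% and 2.79%). Of the genes whose ratio rose, 1217 were called higher in the co-culture channel and 80 were called lower in cells alone, 9 of them in both. Of those whose ratio fell, 1737 were called lower in co-culture and 82 higher in cells alone, with 13 in both. Neither channel alone was called for 562 and 410 genes. The alone channels of the S and CS arrays of 24 h, which went against their labels, were kept in this fit. Their part in the smaller number of calls in cells alone was not tested, and a gene not called there may still have changed.

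**Figure D2:**
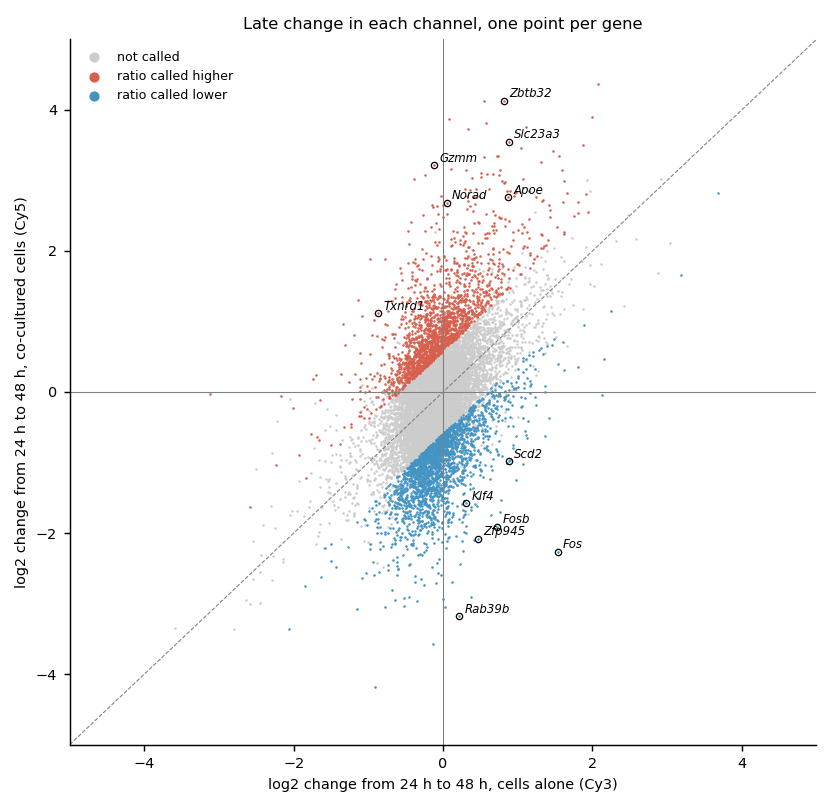
Each point is one of the genes tested, with its log2 change from 24 h to 48 h in cells alone on the x axis and in co-cultured cells on the y axis. Points above the dashed line of equal change have a higher ratio at 48 h, and coloured points were called. Labelled genes are named in the text, and Fos lies far to the lower right because it fell in co-culture and rose in cells alone.

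The largest fall among genes well above background in both channels on all 8 arrays was that of Fos, which with a Jun protein forms the AP-1 transcription factor. Its log2 ratio was 1.99, 2.66, 2.10 and 2.29 on the NT, S, C and CS arrays of 24 h and -1.49, -1.51, -1.60 and -1.57 on those of 48 h. All treatments moved from well above to well below cells alone, with no overlap. The ratio fell by 3.80 ± 0.50 on the log2 scale (SE, n = 4 arrays per time, adjusted p = 0.000335), a 13.9-fold change. Both channels took part, with a log2 change of -2.27 ± 0.24 in co-cultured cells and 1.53 ± 0.37 in cells alone.

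Fosb, a close relative that also pairs with Jun proteins, followed the same course. Its log2 ratio was 1.78, 2.68, 2.11 and 1.51 at 24 h and -0.73, -0.60, -0.22 and -0.91 at 48 h in the order NT, S, C and CS. Every array thus crossed 0, and the change was -2.64 ± 0.35 (adjusted p = 0.000349). Klf4, a zinc finger regulator of differentiation, was slightly below cells alone at 24 h, between -0.57 and -0.17, and at -2.44 to -2.04 at 48 h, a log2 change of -1.89 ± 0.16 (adjusted p = 4.5e-05). The ratios of Fos, Fosb and Klf4 also fell when the arrays were scaled to one spread, with changes of -3.77, -2.88 and -0.98.

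Other immediate early genes went both ways. Of 31 AP-1 and immediate early genes tested, 9 rose and 8 fell, where 13.8% and 16.6% of all genes did. Their median log2 change was 0.13 against -0.02 over all genes, and it was -0.21 after scaling. Without the arrays labelled S and CS of 24 h 5 fell. Besides Fos, Fosb and Klf4, the genes that fell included Klf2 (-1.72 ± 0.41, adjusted p = 0.00684), whose times overlapped on the NT array and which was not called after scaling or without the arrays labelled S and CS of 24 h, and Btg2, an antiproliferative gene (-0.96 ± 0.18, adjusted p = 0.00228). Those that rose included Fosl2, another Fos relative, with 1.51 ± 0.21 (adjusted p = 0.000414), and the small Maf gene Mafk with 1.41 ± 0.16 (adjusted p = 0.00018). Fosl2 read -0.24, 0.87, 0.59 and 0.18 at 24 h and 2.09, 1.68, 2.02 and 1.66 at 48 h. Members of the Fos family thus moved in opposite directions between the times. Jun did not pass the test, with a log2 change of 0.06 ± 0.34 (adjusted p = 0.899).

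**Figure D3:**
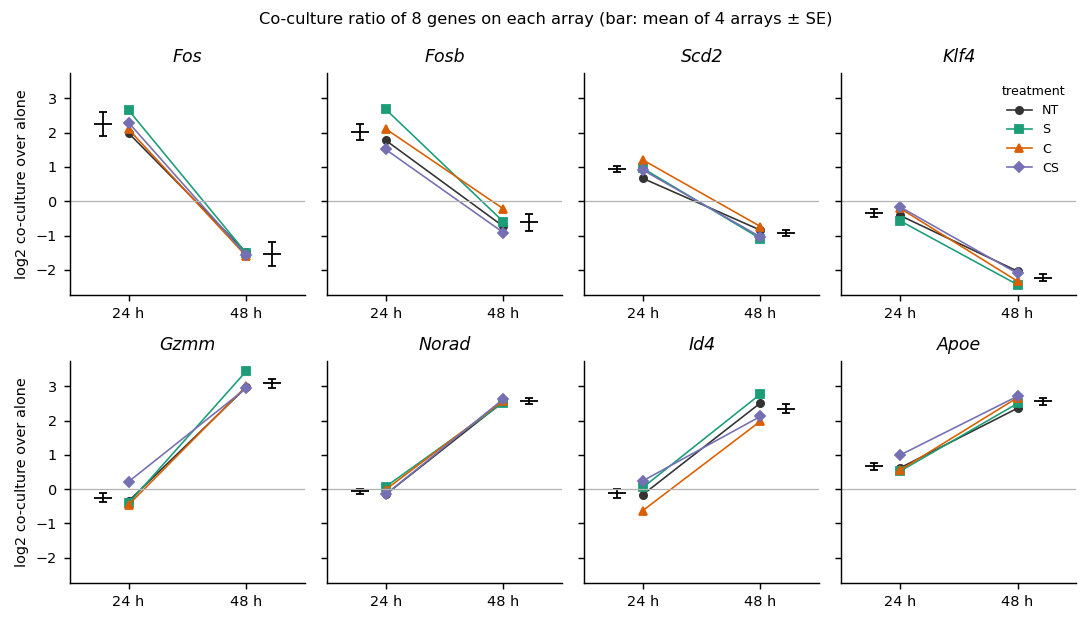
The log2 co-culture ratio of 8 genes is drawn on each array, with a line for each treatment from 24 h to 48 h and, beside the points, the fitted mean of the 4 arrays of a time ± SE. Fos, Fosb and Scd2 crossed 0 on every line, Klf4 went down from near 0, and Gzmm, Norad, Id4 and Apoe went up without overlap between the times.

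The largest rises were of genes with diverse functions. Gzmm, which encodes the serine protease granzyme M, read -0.35, -0.41, -0.46 and 0.22 at 24 h and 2.97, 3.44, 3.00 and 2.94 at 48 h in the order NT, S, C and CS. It was at or below the level of cells alone on 3 of 4 arrays at 24 h and far above it on every array at 48 h. The log2 change was 3.34 ± 0.19 (adjusted p = 1.65e-05), and it lay in the co-culture channel (3.22 ± 0.15), while cells alone changed by -0.12 ± 0.20. Norad, a long non-coding RNA that binds Pumilio proteins, showed one of the tightest patterns. It lay between -0.16 and 0.07 on all 24 h arrays and between 2.52 and 2.63 on all 48 h arrays, a change of 2.63 ± 0.11 (adjusted p = 1.15e-05). Its 3 other probes that passed the filter also rose, by 0.62 to 1.72.

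Several regulators of signalling and metabolism rose with them. Dio2, the deiodinase that activates thyroid hormone, read -0.53, 0.33, 0.62 and -0.57 at 24 h and 1.67, 2.52, 2.86 and 2.70 at 48 h (change 2.47 ± 0.21, adjusted p = 4.74e-05). Efnb2, a membrane ligand of Eph receptors, changed by 2.30 ± 0.16 (adjusted p = 2.9e-05). Cdk5r1, the activator of the kinase Cdk5, changed by 2.27 ± 0.15 (adjusted p = 2.53e-05), and its other probe by 2.58. Both genes lay within 1 log2 unit of cells alone on every 24 h array and above 2 log2 units on every 48 h array. Slc23a3, a member of the ascorbate transporter family, changed by 2.67 ± 0.20 (adjusted p = 3.56e-05), Best2, a member of the bestrophin channel family, by 2.54 ± 0.14 (adjusted p = 1.69e-05), and the splicing regulator Srrm4 by 2.30 ± 0.15 (adjusted p = 2.53e-05). Cabyr, a calcium-binding protein first known from sperm, was already raised at 24 h, with a mean of 1.53, and stood at a mean of 4.30 at 48 h, without overlap. Its late change of 2.77 ± 0.32 (adjusted p = 0.00019) was not called after scaling of the arrays. S100a9, a calcium-binding alarmin of inflammation, had a mean of 1.07 at 24 h and 3.32 at 48 h (change 2.25 ± 0.35, adjusted p = 0.000782), and was not called after scaling either.

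A total of 303 genes that rose (16.4% of them) and 398 that fell (18.0%) lay within 0.26 log2 units of 0 on every 24 h array. The 24 h values enter the late change as well, and the course before 24 h is not described here. Zbtb32, a repressor of the BTB zinc finger class, lay between -0.08 and 0.10 at 24 h and between 2.52 and 3.69 at 48 h (change 3.32 ± 0.20, adjusted p = 2.11e-05). Nfyb, a subunit of the CCAAT-binding factor NF-Y, lay between -0.23 and -0.04 and then between 1.98 and 2.13 (change 2.19 ± 0.07, adjusted p = 6.59e-06), and its other probes rose by 1.98 and 2.19. Ttc30b, a component of the transport machinery of cilia, lay between -0.05 and 0.20 and then at -1.06, -2.95, -2.61 and -3.40 on the NT, S, C and CS arrays (change -2.56 ± 0.35, adjusted p = 0.000392). Its untreated pair changed least. Tslp, an epithelial and stromal cytokine, had a log2 change of -2.31 ± 0.15 (adjusted p = 2.36e-05). In co-cultured cells it was not well above background on any 48 h array, where its level was at least 4.06-fold lower than at 24 h.

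Large falls came from genes of several roles as well. Rab39b, a small GTPase of vesicle traffic, read -0.14, -1.03, -0.36 and -0.41 at 24 h and -3.61, -4.10, -3.91 and -3.92 at 48 h (change -3.40 ± 0.31, adjusted p = 6.73e-05). Fgd6, an exchange factor for Cdc42, changed by -2.61 ± 0.18 (adjusted p = 2.68e-05), Ing2, a reader of histone methylation, by -2.27 ± 0.10 (adjusted p = 1.15e-05), and Fam13c by -2.25 ± 0.17 (adjusted p = 3.56e-05). Each of these genes lay on the 48 h arrays below all of its 24 h values. Zc3h6, a CCCH zinc finger gene, changed by -2.27 ± 0.15 (adjusted p = 2.59e-05), but one of its other probes changed by 0.31. Kif18a, a kinesin that aligns mitotic chromosomes, was already low at 24 h, at -1.56 to -0.91, and stood at -3.66 to -3.02 at 48 h. Esco2, an acetyltransferase of sister chromatid cohesion, went from between -1.51 and -0.36 to between -3.45 and -3.06. Their late changes of -2.23 ± 0.31 (adjusted p = 0.000427) and -2.12 ± 0.30 (adjusted p = 0.000482) were not called after scaling.

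Some genes passed only because a channel was bright at one time. In co-cultured cells, Adam30, a testis-type metalloprotease gene, was not well above background on any 24 h array and was at least 4.11-fold higher at 48 h. Senp8, the NEDD8-specific protease, and Gpr141, an orphan receptor, were not well above background in co-culture at 48 h and were there at least 3.73-fold and 2.49-fold lower than at 24 h. Cspg5, a chondroitin sulfate proteoglycan, read -0.40 to 0.85 at 24 h and 3.03 to 3.96 at 48 h, with 3 of 4 alone channels of 24 h above background. The neuronal RNA-binding gene Elavl3 rose by 3.41 ± 0.40 (adjusted p = 0.00019), but its alone channel was above background on 1 of 4 arrays at 24 h and on none at 48 h.

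Of the 42 gene lists examined, that of stefin A, small proline-rich and cornified envelope genes had the highest share of rises. Stefins inhibit cathepsins, and Sprr and Lce proteins build the envelope of keratinocytes. Of 30 tested, 18 rose and none fell, where 13.8% of all genes rose, and the median log2 change was 1.26 against -0.02 over all genes, but the direction turned after scaling, with 2 rising, 1 falling and a median of -0.12. Under background correction with loess, 13 rose, and without the arrays labelled S and CS of 24 h, 16 rose. The group was already high at 24 h, and its median log2 ratio went from 1.48 to 2.65. Near-identical members of these families may share probes, so the members are not independent.

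Sprr1b, an envelope precursor, showed the largest change among members well above background on all arrays, with 0.90, 0.64, 0.83 and 1.71 at 24 h and 3.36, 3.49, 3.60 and 3.55 at 48 h (change 2.48 ± 0.26, adjusted p = 0.000117). Its change was in co-cultured cells (2.53 ± 0.13), and it rose by 0.90 after scaling. Sprr2e read 2.14, 2.95, 2.50 and 2.37 and then 3.99, 4.17, 3.88 and 4.08 (change 1.53 ± 0.33, adjusted p = 0.00409), which turned to -0.58 after scaling. Lce3c changed by 2.51 ± 0.45 (adjusted p = 0.00176), with 2 of 4 alone channels above background at each time and no call after scaling. For Cstdc5 and Stfa1, of the stefin cluster, the alone channel was not well above background on any array, so their ratios are only bounds, and Stfa1 was not called without the arrays labelled S and CS of 24 h.

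Sprr genes rose together, so stretches of their promoters are shown where they hold the AP-1 element TGANTCA, which reads the same on both strands. RefSeq promoters (assembly GRCm38.p6, 250 bases before to 50 after the start) were found for 26 of the 30 genes. The element was in 13 of them, and in 10 of the 17 that rose, against 8.97% of 27025 genes with a promoter and 6.96% of the genes tested. Each stretch below is written 5′ to 3′ on the gene's strand with the element in capitals.
Sprr1b: agcacctaggaTGAATCAtgtctgacagg
Sprr2e: tgagtgctcacTGAGTCAcaggtctcaac
Sprr2f: aaactgaatatTGAGTCAcagtgctcaac
Sprr2h: gggatggtctcTGAGTCActgcactttac
Sprr2i: gaagggctcacTGAGTCAcaggactgaac
The stretches lie at chr3:92438873-92438901 on the minus strand (Sprr1b) and, on the plus strand, at chr3:92351939-92351967 (Sprr2e), chr3:92364979-92365007 (Sprr2f), chr3:92385476-92385504 (Sprr2h) and chr3:92407787-92407815 (Sprr2i). The element begins 111 bases before the start of Sprr1b and 193 to 198 bases before the starts of the Sprr2 genes. The stretch of Sprr2d was identical to that of Sprr2e. Sprr2f rose by 2.14 ± 0.70 (adjusted p = 0.0295), Sprr2h by 1.37 ± 0.22 (adjusted p = 0.000923) and Sprr2i by 1.89 ± 0.32 (adjusted p = 0.00128), but after scaling these 3 changes were -0.64, -0.36 and -0.35. A match is a description of letters and not evidence of binding.

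In the circadian clock, Arntl (Bmal1) and Clock drive the genes of their own repressors, among them Per, Cry and Nr1d1. Of 15 clock genes tested, 7 rose and 1 fell, where 13.8% and 16.6% of all genes did, with a median log2 change of 0.51, and 1 rose and 1 fell after scaling, with a median of 0.18. Nr1d1, the repressor REV-ERB alpha, read -0.28, 0.23, -1.19 and -0.14 at 24 h and 0.30, 1.62, 1.77 and 1.98 at 48 h (change 1.77 ± 0.33, adjusted p = 0.00217). The channels moved in opposite directions, with 0.81 ± 0.19 in co-culture and -0.95 ± 0.25 in cells alone. Per1 read 0.33, -0.34, 0.11 and 1.26 and then 2.13, 1.80, 1.45 and 1.40 (change 1.35 ± 0.30, adjusted p = 0.00535), called in co-culture (1.19 ± 0.19) and not in cells alone (-0.17 ± 0.31). Arntl was the member that fell, from 0.41, -0.33, 0.22 and 0.42 to -0.76, -0.85, -0.63 and -0.73 (change -0.92 ± 0.13, adjusted p = 0.000554).

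Ciart, a repressor of Arntl and Clock, had a log2 change of 0.94 ± 0.12 (adjusted p = 0.00029), Cry2 of 0.67 ± 0.10 (adjusted p = 0.000681), Tef of 0.70 ± 0.14 (adjusted p = 0.00347), Nfil3 of 0.61 ± 0.12 (adjusted p = 0.00277) and Rora of 0.70 ± 0.20 (adjusted p = 0.0178), which was not called under loess or without the arrays labelled S and CS of 24 h. Except for Nr1d1, none of the 7 that rose was called after scaling. The E-box CACGTG, to which Arntl and Clock bind and which reads the same on both strands, was in 4 of the 12 clock genes that had a promoter in the same RefSeq set, against 8.09% of all genes and 11.3% of the genes tested. The promoters of Per1, Ciart and Tef, all of which rose, hold it as follows.
Per1: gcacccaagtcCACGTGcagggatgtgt
Ciart: gcatctagagtCACGTGttgccggtaag
Ciart: gcagggggaggCACGTGcagaaccgcac
Tef: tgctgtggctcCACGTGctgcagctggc
They lie at chr11:69098772-69098799 on the plus strand (Per1), at chr3:95882328-95882355 and chr3:95882270-95882297 on the minus strand (Ciart) and at chr15:81802535-81802562 on the plus strand (Tef). Ciart holds another copy 44 bases before its start, and Tef one at chr15:81811265-81811292, 138 bases before another of its starts. The other promoter with the element was that of Bhlhe41, whose late change of 0.49 ± 0.38 did not pass the test (adjusted p = 0.304).

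In the TGF-beta and BMP pathways, genes of differing roles rose, and those of a receptor and a BMP modulator fell. Of 25 genes tested, 7 rose and 2 fell, where 13.8% and 16.6% of all genes did, with a median log2 change of 0.35. After scaling 1 rose and none fell, with a median of 0.20. Id4, an inhibitor of basic helix-loop-helix factors and a target of BMP signals, read -0.16, 0.05, -0.62 and 0.24 at 24 h and 2.51, 2.77, 1.98 and 2.12 at 48 h (change 2.47 ± 0.18, adjusted p = 3.07e-05). It was the member called after scaling. The inhibitory Smad genes Smad6 and Smad7 changed by 1.59 ± 0.16 (adjusted p = 9.66e-05) and 1.24 ± 0.20 (adjusted p = 0.000956). Smad6 was at 0.58 to 1.02 at 24 h and at 2.09 to 2.67 at 48 h, without overlap. Id1 changed by 0.73 ± 0.14 (adjusted p = 0.0021) and Inhba, the activin A subunit, by 1.37 ± 0.19 (adjusted p = 0.000434). The TGF-beta target Pmepa1 changed by 1.17 ± 0.24 (adjusted p = 0.00427), with no value on the CS array of 24 h. Smad9 also rose (1.79 ± 0.53, adjusted p = 0.0188), but its untreated 24 h array stood at -2.50 and its times overlapped. The receptor Tgfbr2 changed by -0.99 ± 0.12 (adjusted p = 0.000223) and the BMP modulator Bmper by -0.91 ± 0.08 (adjusted p = 6.01e-05).

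Of 32 receptor and related cytokine genes tested, 11 rose and 5 fell, where 13.8% and 16.6% of all genes did, with a median log2 change of 0.52, and 3 rose and 3 fell after scaling, with a median of 0.06. Without the arrays labelled S and CS of 24 h 7 rose. Il13ra1 and Il4ra, subunits of the receptor for interleukins 4 and 13, changed by 1.77 ± 0.18 (adjusted p = 9.26e-05) and 1.15 ± 0.11 (adjusted p = 7.5e-05). Il13ra1 was at 0.57 to 1.16 at 24 h and at 2.29 to 2.95 at 48 h, and Il4ra at 0.52 to 0.94 and 1.81 to 2.01, so neither overlapped. Il18, an interleukin of the IL-1 family, went from -0.64 to -0.34 at 24 h to -2.39 to -1.90 at 48 h (change -1.68 ± 0.15, adjusted p = 5.42e-05). Tlr13, a sensor of bacterial ribosomal RNA, rose by 2.36 ± 0.58 (adjusted p = 0.00805), with its highest value, 4.82, on the NT array of 48 h, and was not called after scaling.

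Of 20 chemokine genes, 1 rose and 6 fell, where 13.8% and 16.6% of all genes did. The median log2 change was -0.49, and none rose and 1 fell after scaling. The median differences of the matched pairs were -0.60 (NT), -0.84 (S), -0.67 (C) and 0.72 (CS), so that the CS pair went the other way. Without the CS array of 24 h 9 fell, and without the S array of 24 h 3 rose and 4 fell. Ccl8 changed by -1.05 ± 0.23 (adjusted p = 0.00444) and moved in co-cultured cells (-1.33 ± 0.10). Ccl4 was the one that rose, by 2.42 ± 0.53 (adjusted p = 0.0047), but its alone channel was not well above background on any 24 h array and it was not called without the arrays labelled S and CS of 24 h. Cxcl9 and Ccl12 were called lower and lost their calls under background correction with loess.

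Among 35 NF-kB and TNF target genes, 4 rose and 6 fell, where 13.8% and 16.6% of all genes did. After scaling none rose and 9 fell, and the median log2 change went from -0.06 to -0.44. Nfkbiz, a nuclear regulator of NF-kB, was at 1.24 to 1.87 at 24 h and at -0.60 to 0.38 at 48 h (change -1.48 ± 0.18, adjusted p = 0.000241). It was thus above cells alone on every array at 24 h but not at 48 h. Vcam1, an adhesion molecule, changed by -1.29 ± 0.27 (adjusted p = 0.00364) and the A20-binding inhibitor Tnip3 by -1.47 ± 0.23 (adjusted p = 0.000725). Of these, Vcam1 was not called after scaling. Gch1, which makes the cofactor tetrahydrobiopterin, went the other way, from between 1.16 and 1.86 to between 2.87 and 3.39 (change 1.71 ± 0.21, adjusted p = 0.000259). It rose in co-culture (0.96 ± 0.10) and fell in cells alone (-0.75 ± 0.15), and was not called after scaling. Of 34 interferon-stimulated genes, 1 rose and 4 fell, and of 33 interferon-inducible GTPase and antigen presentation genes, none rose and 6 fell, among them Gbp2 (-1.11 ± 0.17, adjusted p = 0.00064). The former list was below cells alone at both times, with a median log2 ratio of -0.82 at 24 h and -0.92 at 48 h, and its median change of -0.19 turned to 0.46 after scaling, as that of the latter did from -0.10 to 0.06.

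Genes of lipid and glucose handling changed in both directions. Scd2, a fatty acid desaturase, read 0.67, 0.96, 1.20 and 0.91 at 24 h and -0.84, -1.09, -0.74 and -1.04 at 48 h. It was above cells alone on every 24 h array and below on every 48 h array (change -1.86 ± 0.13, adjusted p = 2.82e-05). It fell in co-culture (-0.98 ± 0.08) and rose in cells alone (0.88 ± 0.11), and the change was -1.75 after scaling. Acss2, which makes acetyl-CoA from acetate, rose by 1.47 ± 0.16 (adjusted p = 0.000136), and the elongase Elovl6 changed by -1.25 ± 0.15 (adjusted p = 0.000215). Fasn, the fatty acid synthase gene, was called higher (1.14 ± 0.29, adjusted p = 0.0103), but not under background correction with loess, nor without the arrays labelled S and CS of 24 h. Of 21 fatty acid and triglyceride synthesis genes, 3 rose and 3 fell, where 13.8% and 16.6% of all genes did. After scaling none rose and 2 fell, and Acss2, Elovl6 and Fasn were not called.

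Apolipoprotein E, which carries lipids between cells, rose strongly. Apoe read 0.62, 0.52, 0.55 and 0.99 at 24 h and 2.36, 2.50, 2.67 and 2.71 at 48 h (change 1.89 ± 0.14, adjusted p = 3.56e-05), and it rose in co-culture (2.76 ± 0.14) and, less, in cells alone (0.87 ± 0.16). Lrp1, a receptor for Apoe-bearing particles, rose by 1.17 ± 0.14 (adjusted p = 0.000219). Abca1, the cholesterol exporter, changed by -1.08 ± 0.13 (adjusted p = 0.000224), and was at -0.07 to 0.32 at 24 h and at -1.27 to -0.69 at 48 h. In all, 6 of 22 lipid uptake and lipoprotein genes rose and 4 fell, where 13.8% and 16.6% of all genes did. Lpl, the lipoprotein lipase, was already far below cells alone at 24 h (-1.77 to -1.34) and stood at -2.42 to -2.17 at 48 h (change -0.72 ± 0.20, adjusted p = 0.0139), a change that turned to 0.55 after scaling and was not called without the arrays labelled S and CS of 24 h. Of 22 cholesterol synthesis genes, none rose and 6 fell, with Nsdhl at -1.27 ± 0.12 (adjusted p = 7.76e-05) and Cyp51 at -1.16 ± 0.25 (adjusted p = 0.00417), and 1 fell after scaling.

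Among 16 genes of adipocyte differentiation, 2 rose and 4 fell, where 13.8% and 16.6% of all genes did, but 4 rose and none fell after scaling. Cebpb, an early driver of the programme, was at 0.20 to 0.54 at 24 h and at 1.80 to 2.13 at 48 h (change 1.58 ± 0.14, adjusted p = 6.1e-05). Gpd1, which makes glycerol phosphate for triglycerides, was at 0.07 to 0.52 and then at 1.97 to 2.44 (change 1.98 ± 0.14, adjusted p = 3.02e-05). Fabp4, a fatty acid carrier of mature fat cells, went the other way (change -1.07 ± 0.25, adjusted p = 0.0066), with a rise in cells alone (0.75 ± 0.19) and a change of -0.32 ± 0.12 in co-culture that was not called. Its 24 h arrays ranged from -0.53 to 1.29 and overlapped those of 48 h. The early B-cell factor gene Ebf1 changed by -0.66 ± 0.12 (adjusted p = 0.0018), and was not called without the arrays labelled S and CS of 24 h.

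Of 34 glycolysis and hypoxia genes, 7 rose and 2 fell, against 13.8% and 16.6% of all genes. The median log2 change of 0.26 turned to -0.18 after scaling, where 1 rose and 8 fell. The kinase genes Pfkfb4 and Pfkfb3, which set the pace of glycolysis, rose 2.15-fold (SE 0.17 log2, adjusted p = 0.000687) and by 1.00 ± 0.22 (adjusted p = 0.0047), although the other probe of Pfkfb3 changed by 0.30. Slc2a1, the glucose transporter GLUT1, was at 1.14 to 1.83 and then at 2.23 to 2.51 (change 1.00 ± 0.16, adjusted p = 0.000952, but -0.22 after scaling). Pdk1, which restrains pyruvate entry into the citrate cycle, fell from between 0.80 and 1.08 to between -0.10 and 0.05 (change -0.94 ± 0.10, adjusted p = 0.000127).

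The factor ATF4 drives genes that answer a lack of amino acids. Of 37 such genes, 1 rose and 8 fell, with a median log2 change of -0.31, where 13.8% of all genes rose and 16.6% fell, and after scaling none rose and 6 fell, with a median of -0.04. Cth, an enzyme of cysteine synthesis, changed by -1.51 ± 0.11 (adjusted p = 3.24e-05), Chac1, which degrades glutathione, by -1.33 ± 0.14 (adjusted p = 0.00012) and Ddit3 (CHOP), a stress transcription factor, by -1.12 ± 0.10 (adjusted p = 6.59e-05). Cth was at -0.56 to -0.06 at 24 h and at -1.76 to -1.69 at 48 h, and its other probe changed by -1.34. Of 26 endoplasmic reticulum chaperone and unfolded protein genes, 1 rose (Pdia4, 0.85 ± 0.17, adjusted p = 0.00282) and 8 fell, among them Sel1l, of the degradation machinery (-1.06 ± 0.09, adjusted p = 4.2e-05). The median change of this list was 0.08, and after scaling none rose and 1 fell. Hspa5, the chaperone BiP, changed by less than 1.5-fold (0.35 ± 0.07, adjusted p = 0.00282).

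Proteasome subunit genes fell in part and none rose. Of 31 tested, 9 fell, with a median log2 change of -0.20, and 3 fell after scaling. Over all genes 13.8% rose and 16.6% fell. Psma1 was at -0.35 to -0.27 on the 24 h arrays and at -1.70 to -1.39 on those of 48 h (change -1.20 ± 0.11, adjusted p = 5.75e-05), and Psma4 at -0.15 to -0.04 and -1.37 to -1.14 (change -1.17 ± 0.08, adjusted p = 2.59e-05). The arrays of a time lay close together for both genes, but Psma1 was not called after scaling. Among 32 NRF2, glutathione and redox genes, 7 rose and 7 fell, and 11 rose without the S array of 24 h or without the C array of 48 h. After scaling 1 rose and 3 fell, with a median log2 change of -0.05. Txnrd1, thioredoxin reductase, went from between -0.27 and 0.33 to between 1.72 and 2.27 (a 3.99-fold rise, SE 0.13 log2, adjusted p = 2.36e-05), with a rise in co-culture (1.12 ± 0.07) and a fall in cells alone (-0.88 ± 0.12). Nfe2l2, the gene of NRF2 itself, changed by -1.15 ± 0.18 (adjusted p = 0.000838).

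**Figure D4:**
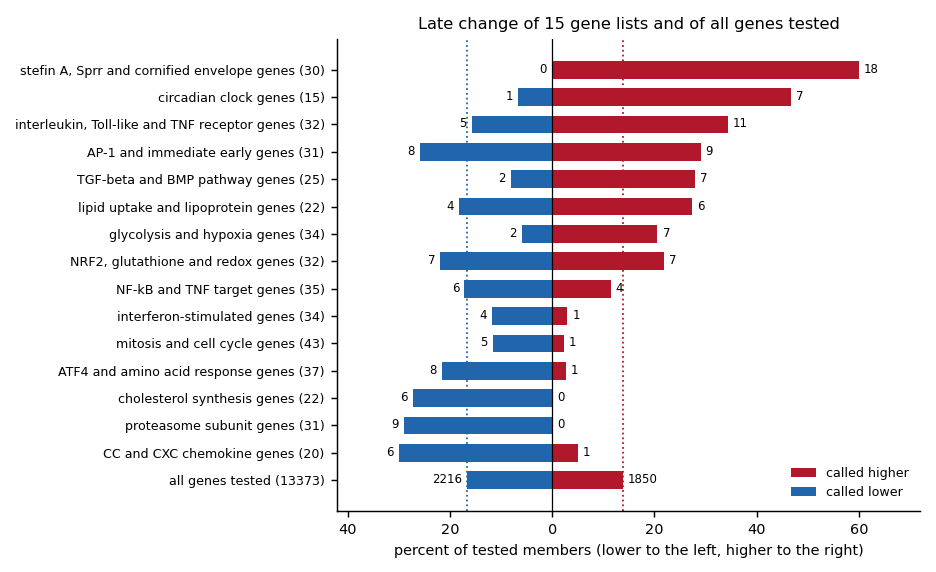
Bars give the percent of tested members of 15 gene lists and of all genes whose co-culture ratio was called higher (right) or lower (left) at 48 h than at 24 h, with the number of genes beside each bar and of tested members in parentheses. Dotted lines mark the shares over all genes, and the stefin A, Sprr and cornified envelope list reaches farthest to the right, a direction that its median did not keep after scaling of the arrays.

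Many zinc finger genes fell. Zfp945 and Zfp712, of the Kruppel type, were among the 12 largest falls above background, so the genes named Zfp with a number were counted, a group chosen after its values were seen and therefore not tested. Of 319 such genes, 148 fell (46.4%, against 16.6% of all genes) and 26 rose (8.15% against 13.8%). The share was not particular to them, as 11 of 24 vomeronasal receptor genes, a dim family that these cells should hardly express, also fell (45.8%), with a median change of -0.75 and 11 called lower in co-culture against 1 in cells alone. The median log2 ratio of the zinc finger genes was -0.01 at 24 h and -0.54 at 48 h. In co-cultured cells 160 zinc finger genes were called lower, but in cells alone 6. The median change was -0.69 in co-culture and -0.08 in cells alone. The fall was seen in every treatment, with median changes of -0.20 (NT), -0.57 (S), -0.60 (C) and -0.76 (CS). With background correction and loess 120 fell, after scaling 109, without the arrays labelled S and CS of 24 h 128, and with both channels above background on all 8 arrays 120 of 276. As a group they were dimmer than other genes, with a median log2 level of 9.53 against 10.65 in untreated cells alone at 24 h, and members may share probe sequence.

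Zfp945 read -0.28, -0.83, -0.32 and 0.01 at 24 h and -2.52, -2.89, -3.16 and -3.04 at 48 h (change -2.55 ± 0.22, adjusted p = 5.43e-05). Its 2 other probes changed by -1.59 and -1.46. Zfp712 read 0.04, 0.68, 0.18 and 0.03 and then -1.27, -2.17, -2.48 and -2.40 (change -2.31 ± 0.23, adjusted p = 8.61e-05). Both genes fell in every matched pair, Zfp712 least in the untreated one. Zfp820 changed by -3.28 ± 0.35 (adjusted p = 0.000115), with the co-culture channel above background on 1 of 4 arrays at 48 h.

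**Figure D5:**
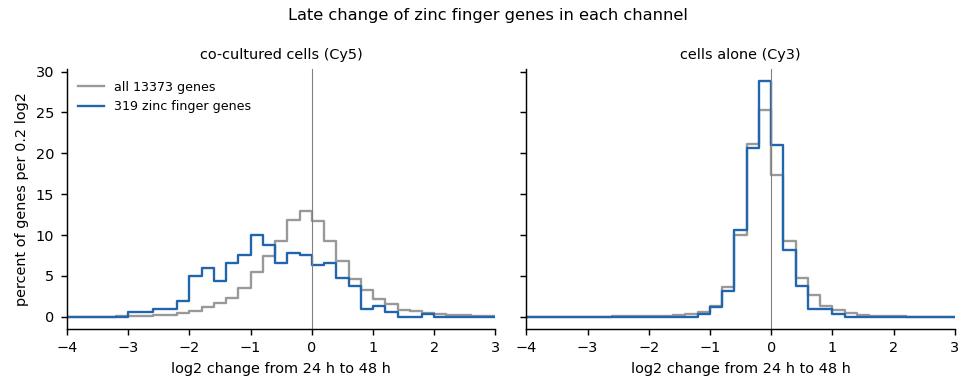
Curves give the percent of genes in each step of 0.2 log2 units of change from 24 h to 48 h, for all genes and for the zinc finger genes, in co-cultured cells (left) and in cells alone (right). The zinc finger genes are shifted to the left of all genes in co-culture, with a median of -0.69, while both curves lie together in cells alone.

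The cells carried fibroblast markers throughout. All 22 pre-adipocyte and fibroblast markers were tested, and 20 or 21 of them lay well above background on all 4 arrays of a time in each channel. Of the ratios, 2 rose and 6 fell, where 13.8% and 16.6% of all genes did, and 1 rose and 2 fell after scaling. Fbln1 was among the rises, although its other probe changed by 0.04. Pdgfra, a receptor of pre-adipocytes, was among the falls (-0.83 ± 0.09, adjusted p = 0.00014), but was not called after scaling. Of 8 mature adipocyte markers, Adipoq, Plin1, Lep, Retn and Cfd did not pass the filter, while Fabp4, Cidec and Slc2a4 did. Of these 3, 2 lay well above background on all 4 co-culture arrays of each time. In cells alone 1 did so at 24 h and 2 at 48 h. From 24 h to 48 h 1 was called higher in co-culture and 2 in cells alone. Of 22 macrophage markers 17 passed, and the defining genes Ptprc, Cd68, Fcgr1, Laptm5 and Spi1 did not. Their summed signal in co-culture ranged from 24716 to 33404 at 24 h and from 24176 to 37446 at 48 h, which overlapped. In cells alone it was 15961 to 24689 at 24 h and 19337 to 22688 at 48 h, below every co-culture value of the same time. Of the ratios, 6 rose and 2 fell, but 1 rose and 2 fell after scaling, 1 and 1 under loess, 3 and 2 without the CS array of 24 h, and 2 and 2 without the arrays labelled S and CS of 24 h. Ctss, a lysosomal protease, rose by 2.16 ± 0.50 (adjusted p = 0.0064) and stood at 3.23, 3.13, 0.46 and 2.01 at 48 h, but was not called without the arrays labelled S and CS of 24 h. Csf1r, the receptor of the macrophage growth factor, changed by 0.64 ± 0.19 (adjusted p = 0.019), not called under loess or without those arrays, and Adgre1 was above background in co-culture on 3 of 4 arrays at 24 h and on none at 48 h. Whether macrophage RNA had a part in any rise was not tested. In bulk RNA, fewer cells of a kind and less RNA per cell cannot be told apart.

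The late changes of the 4 treatments resembled each other. The differences between 48 h and 24 h of the 4 matched pairs correlated across genes with r of 0.622 to 0.744, although genes are no replicates. Each pair uses arrays of its own, but all arrays of a time shared a slide and a scan. A late change shared by the treatments and a difference between slides therefore cannot be told apart here. Of the genes that rose, 1729 went the same way in all 4 pairs, and of those that fell, 2028. These genes were called from the same pairs, so the counts describe them and are no separate evidence of a shared change. In the test of whether the late change differed by cortisol or by serotonin, limma called 0 genes for either hormone (percent called 0). An unadjusted p under 0.05 was reached by 8.87% of genes for cortisol and 3.67% for serotonin, and the smallest adjusted p was 0.172 and 0.252. With 1 array per condition, and with a pair of 24 h arrays that went against their labels, a difference between hormones was hard to detect, and its absence was not shown.

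Few genes turned from one side of cells alone to the other. The 25 genes that went from called higher at 24 h to called lower at 48 h included Fos and Fosb, described above. The 11 that went from lower to higher included Pdk4 and Pcf11. Pdk4, a pyruvate dehydrogenase kinase that glucocorticoids induce, read -0.99, -1.70, -1.44 and 0.47 at 24 h and 1.33, 1.86, 0.59 and 0.78 at 48 h (change 2.06 ± 0.44, adjusted p = 0.00433). The array labelled CS of 24 h was the one above 0. Pcf11, a factor of transcription termination, lay between -1.12 and -0.31 and then between 1.25 and 1.64 (change 2.16 ± 0.14, adjusted p = 2.51e-05), on the same side on all arrays of a time. Optn, an autophagy receptor, was also called (2.03 ± 0.53, adjusted p = 0.0113), but its C array of 24 h stood at -3.33.

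The remaining lists are given by their counts, to be read against the 13.8% of all genes that rose and the 16.6% that fell. Several of their medians lay near 0 and changed sign with the scaling. In energy metabolism, 2 of 30 fatty acid oxidation genes rose and 6 fell, among them Acadm (-0.95 ± 0.12, adjusted p = 0.000285). Of 32 mitochondrial dynamics and citrate cycle genes none rose and 5 fell, and of 41 respiratory chain genes 5 rose and 7 fell. After scaling 2 fatty acid oxidation genes rose and 2 fell, and Acadm was not called. No mitochondrial dynamics or citrate cycle gene was then called, and 4 respiratory chain genes rose and none fell. Of 43 mitosis genes 1 rose and 5 fell, with a median of -0.27 that turned to 0.27 after scaling. The falls were 8 without the S array of 24 h, 11 without the C array of 24 h and 10 without the C array of 48 h. Of 45 DNA replication genes 5 rose and 4 fell (8 rose without the NT array of 48 h), of 22 p53 target genes 5 and 7, and of 21 histone genes 7 and 3. Of 79 cytosolic ribosomal protein genes 8 rose and 14 fell, of 36 ribosome biogenesis genes 6 and 4 (7 fell without the S array of 24 h), of 32 splicing genes 3 and 2, and of 27 heat shock genes 4 and 4.

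Of 34 collagen and matrix genes 2 rose and 4 fell, of 30 matrix protease and inhibitor genes 5 and 2, and of 19 contractile genes 4 and 2. The falls among the proteases and inhibitors were 6 without the CS array of 24 h and 5 without that of 48 h. Plaur, the urokinase receptor, rose by 1.41 ± 0.20 (adjusted p = 0.000502), and Mmp13, a collagenase, changed by -1.49 ± 0.36 (adjusted p = 0.00793), with overlap between the times. Of 32 lysosome and autophagy genes 5 rose and 3 fell, of 20 prostaglandin pathway genes 3 and 6 (3 fell without the NT, S or C array of 48 h), of 19 antimicrobial genes 6 and 3 and of 14 complement genes 3 and 0. Of 25 glucocorticoid-induced genes 2 rose and none fell, with a median of 0.04 and a median difference of -0.59 in the CS pair. Without the CS array of 24 h 5 rose, and without both arrays labelled S and CS of 24 h 4 rose, with a median of 0.23. Of 9 serotonin pathway genes 1 rose and none fell. Of 14 housekeeping genes none rose and 1 fell, and of 40 olfactory receptor genes, which these cells should hardly express, 2 rose and 4 fell, but 0 fell without the C array of 48 h and 1 without the NT or S array of either time.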

How the data were processed

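The authors scanned the arrays and extracted spots with Agilent Feature Extraction (version 10.7.3.1 per the file headers, although the submitters' processing notes give 10.5.1.1). For both channels, the values deposited by the authors are processed intensity on a linear scale, after background subtraction and dye normalization, and log10 ratio values of Cy5 over Cy3. Other deposited columns are flags.

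From the processed signals, log2(Cy5/Cy3) was taken. Control and outlier spots were left out and spots of a probe averaged. Of 39429 probes, 27508 matched RefSeq genes (GRCm38.p6). Of 20886 symbols, 13373 were tested, those with a probe that passed the scanner's background flag (Cy5 or Cy3) on 3 or more of 8 arrays, and the brightest probe stood for the gene. Several probes passed for 3299 genes, of which 81 had calls of both signs. Ratios of all 12 arrays were fitted with time and treatment (6 residual degrees of freedom) in limma 3.58.1 (R 4.3.3, statmod 1.5.0) with lmFit and eBayes. Tests were two-sided with Benjamini-Hochberg adjustment. Single channels were normalized by Aquantile. Interactions of time with each hormone were fitted likewise. The script was tested on simulated data. The number of arrays limits the precision. Figures were drawn with matplotlib 3.10.9.

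The members, the 42 gene lists and the naming rule were chosen with earlier results of these data known. The rule took, among called genes of one sign in all pairs, the 12 largest rises and falls above background on all 8 arrays, 3 each of the others, of late onset (within 0.26 of 0) and of opposite sides of 0, and up to 4 per list, without clone names, predicted genes and olfactory receptors. Other list members are named as examples. Alternatives were normexp (offset 50) with loess, the deposited log ratios, median centring, scaling between arrays, other filters, probe means, other models, array weights, fold thresholds and leaving out arrays. One gene that the rule picked is not reported here.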

Additional observations from a re-analysis of the deposited data

Results flagged for a closer look

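For 17 of 366 groups of 4 arrays (183 named genes at 24 h and 48 h), the highest or lowest array stood apart from the others by Dixon's criterion. Chance flags about 1 in 20 such groups. At 24 h the array labelled S stood apart for Gpr141 (-1.48, with the others at -0.63 to -0.59), Cth (-0.56), Nars (-0.83), Ddx21 (-0.55) and Cd55 (0.39). The array labelled CS of 24 h stood apart for Gzmm (0.22), Esco2 (-0.36), Plaur (0.039) and Slc6a4 (-1.94, with the others at 0.25 to 0.31). The C array of 24 h stood apart for Optn (-3.33, with the others at -0.55 to -0.08) and Fam13c (-0.22). At 48 h the S array stood apart for Gzmm (3.44), Adam30 (4.25) and Pfkfb3 (0.70), and the NT array for Ebf1 (-0.93), Parp12 (-2.48) and Inhba (1.91). The S and CS arrays of 24 h, which went against their labels in the alone channel, accounted for 9 of the 17. No gene was called for a difference of its late change by cortisol or serotonin.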

How the results depend on the processing

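The counts of genes that rose and fell (1850 and 2216) stayed within 1.5 times under loess (1270 and 1638), the deposited log ratios (1846 and 2217), median centring, other filters, probe means, other models and array weights, and leaving out 1 array gave 1773 to 1859 and 2049 to 2244. They moved after scaling to one spread (756 and 1218), without a fold threshold (3452 and 3867), at 2-fold (708 and 882) and with no test but 1.5-fold in all 4 pairs (835 and 999). Leaving out 1 array gave 1706 to 1847 genes higher and 2648 to 2968 lower in co-culture and 281 to 429 higher and 229 to 503 lower in cells alone. The 229 came without the C array of 48 h and 241 without the NT array of 24 h. Scaling channels to the 75th percentile gave 870 lower in cells alone. The cortisol interaction gave 1 gene without the S and CS arrays of 24 h. The serotonin interaction could not be fitted there. Of 183 named genes, 164 kept their call under loess, 90 after scaling and 169 without those 2 arrays. Turned signs were, after scaling, Slc2a1 (-0.22), Iigp1 (0.038), Loxl2 (-0.60), S100a8 (-0.15) and H1f4 (0.10), and with probe means, Uhrf1 (-0.025). The cause was not tested. Fitting the 8 arrays with the treatment as a block of matched pairs gave 1758 and 2117.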
